A study of Homo sapiens with 6 samples.

Results

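A set of 9 genes that copy DNA or supply its building blocks was followed across stable Lin-28B and Ago2 transfectants of H1299 cells. They were the licensing factor CDT1 (ILMN_1651237), the helicase subunits MCM2 (ILMN_1681503), MCM4 (ILMN_1737205), MCM5 (ILMN_1815169), MCM6 (ILMN_1798654) and MCM7 (ILMN_1663195), the helicase activator GINS2 (ILMN_1809590), and the thymidine nucleotide enzymes TYMS (ILMN_1806040) and TK1 (ILMN_1806037). Each was measured by the 1 probe named in brackets, so the 9 members are 9 of the 48803 probes on the array. The pairing of probe and gene came with the list of members, because the deposited values carry probe identifiers only, and it could not be checked against an annotation here. The list was drawn up with earlier results of these arrays known.

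H1299 is an established human line from a non-small cell lung carcinoma, labelled here as lung adenocarcinoma. The arrays held 2 stable Lin-28B clones, 1 control for Lin-28B, 2 stable Ago2 clones and 1 control for Ago2, with 1 Illumina HT-12 BeadChip array for each. RNA came from exponentially growing cells in all 4 groups. The labels do not say what the controls carry, which promoter drives the transfected genes or whether clones were grown on separate days. The p-values rest on the spread within 2 pairs of clones, which may be technical in part. Levels of the transfected genes and of markers of cell type were not analysed here.

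Before S phase, the origin recognition complex, CDC6 and CDT1 load the ring of MCM2 to MCM7 onto DNA. This step licenses an origin, and the loaded ring is later activated as the replicative helicase when CDC45 and the GINS complex join it. TYMS makes thymidylate from deoxyuridylate, and TK1 salvages thymidine into the same product. Transcription of these genes is known to rise with E2F factors as cells pass from G1 into S phase, so their mRNA is widely read as a mark of proliferation. LIN28B blocks maturation of the let-7 microRNAs, which are known to restrain growth genes, and AGO2 holds microRNAs in the silencing complex as its Argonaute core.

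Array medians of the deposited linear intensities lay between 61.7 and 67.04, with a background level still present. All 9 members were bright, between the 87.7th and the 99.7th percentile of their array, and all 9 passed the filter on dim probes that kept 28035 probes (57.4%). The shares of kept probes given below as background therefore include dimmer probes. Shares among probes as bright as the members were not computed. Log2 changes are on the quantile-normalized log2(intensity + 32) scale, and tests are limma's with Benjamini-Hochberg adjustment over all kept probes. On this scale the control for Lin-28B had the lowest average over the members among the 6 arrays. It was the lowest of the 6 arrays for 6 of 9 members, against 28.4% of all kept probes. The count was 8 under median scaling and 4 under cyclic loess. The same control was the highest array for 0 of 9 members, against 24% of kept probes. Over kept probes the control for Ago2 was lowest for 21% and highest for 23.7%. Averaged over the members and relative to their mean over all arrays, the Lin-28B clones lay at 0.26 and 0.18 on the log2 scale, their control at -0.41, the Ago2 clones at -0.15 and 0.055 and their control at 0.066.

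**Figure D1:**
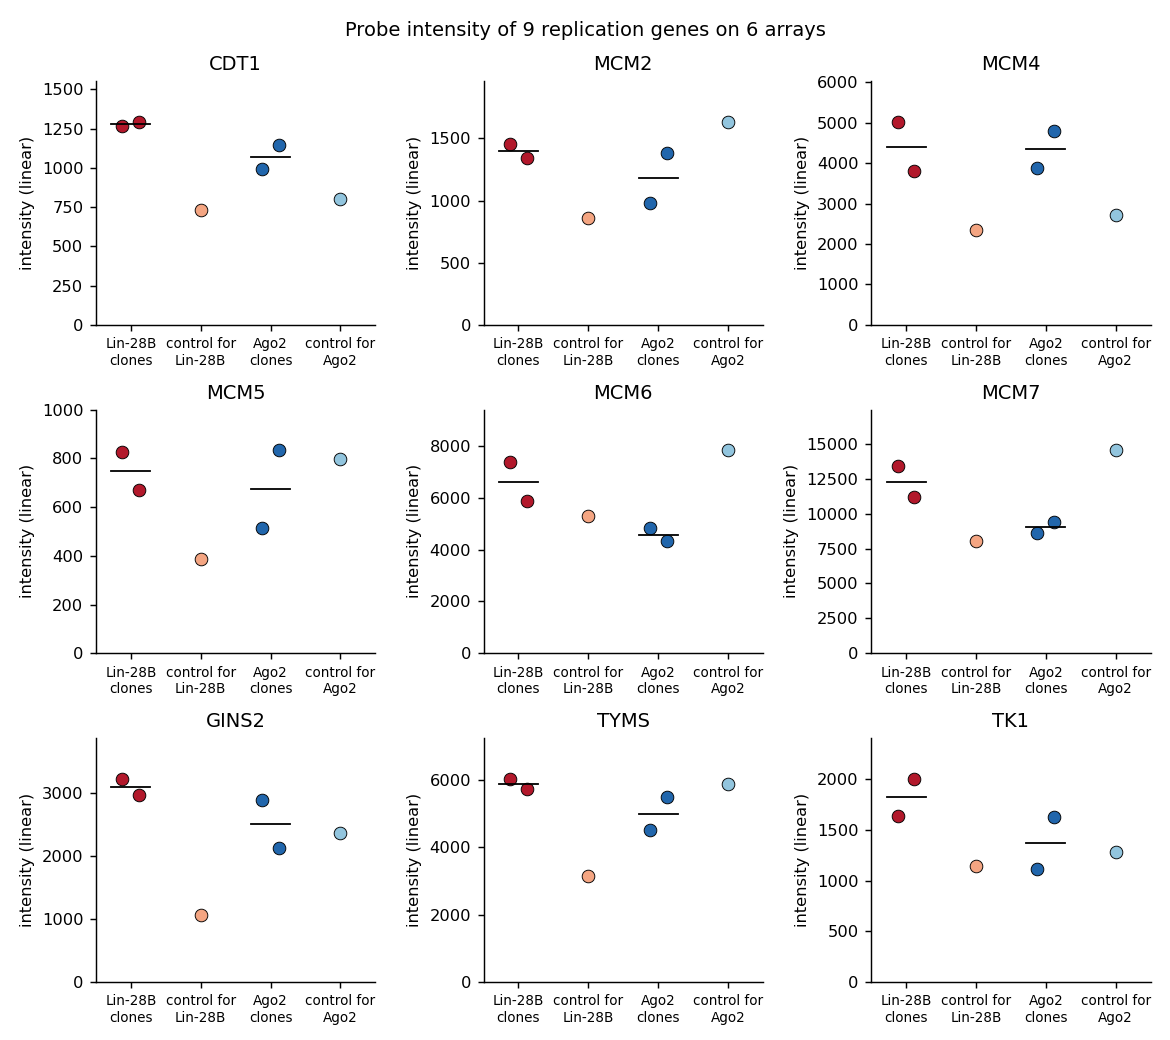
Deposited intensity (linear, from 0) of the 9 members on the 6 arrays. Each point is 1 array, clone 1 left of clone 2, and the black line is the mean of 2 clones. For GINS2 the control for Lin-28B, at 1062, lay below the other 5 arrays, whereas for CDT1 and MCM4 all 4 clones lay above both controls.

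In the Lin-28B clones all 9 members averaged higher than in their control, with log2 changes from 0.12 for MCM6 to 1.33 for GINS2 and a median of 0.65. The median over all kept probes was 0.016, and 52.8% of them averaged higher. Both clones lay above the control for 8 of 9 members, against 42.2% of kept probes, and below it for none, against 37.7%; MCM6 in clone 2 was level with the control. Both clones were at least 1.5-fold above the control for 4 of 9 members, CDT1, MCM5, GINS2 and TYMS, against 4.86% of kept probes. CDT1 reached this size narrowly, at 1.516-fold in clone 1, and did not reach it under cyclic loess or with an offset of 100. For no member were both clones at least 1.5-fold below the control, against 5.05% of kept probes. Such shares were higher among brighter probes. In either direction 9.91% of kept probes reached this size, against 17.6% under a stricter filter at the 70th percentile of the array. No member passed an adjusted p of 0.05 in limma, where 1.65% of kept probes did. At an unadjusted p under 0.05 there were 6 members, against 19.5% of kept probes. In bulk RNA, a different share of cells in S phase and a different amount of these mRNAs per cell cannot be told apart.

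CDT1, which loads the helicase ring, measured 1264 and 1295 in Lin-28B clones 1 and 2, against 733 in their control. The clones lay close together and above the control, with a log2 change of 0.65 ± 0.12 (SE, n = 2 clones, limma adjusted p = 0.0789). CDT1 measured 996 and 1147 in Ago2 clones 1 and 2, against 805 in their control. Both Ago2 clones were again above the control, by 0.40 ± 0.12 on the log2 scale (SE, n = 2 clones, limma adjusted p = 0.249). The controls differed by only -0.021 on the log2 scale (95% interval -0.39 to 0.35), so the change hardly depended on which control was used. Against the control of the other transfection it was 0.63 in the Lin-28B clones and 0.42 in the Ago2 clones.

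Helicase subunits came next in the pathway, and they did not follow 1 pattern. MCM4 measured 5026 and 3796 in the Lin-28B clones, against 2339 in their control, a log2 change of 0.65 ± 0.21 (SE, limma adjusted p = 0.191). MCM4 measured 3871 and 4806 in the Ago2 clones, against 2729 in their control, a log2 change of 0.70 ± 0.21 (SE, limma adjusted p = 0.238). MCM4 was thus higher in all 4 clones than in both controls, and the Lin-28B and Ago2 clones overlapped. Only CDT1 and MCM4, 2 of 9 members, showed this pattern, which 7.07% of kept probes had. The same 2 members had it under median scaling, cyclic loess, an offset of 100 and no offset.

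MCM6 went another way. It measured 7355 and 5856 in the Lin-28B clones, against 5285 in their control, and on the normalized scale clone 2 was level with the control. Its values were 4820 and 4317 in the Ago2 clones, against 7832 in their control. Both Ago2 clones lay below both controls, which was true of no other member and of 14.3% of kept probes; under cyclic loess MCM7 also had this pattern. The log2 change of MCM6 was -0.77 ± 0.16 in the Ago2 clones (SE, limma adjusted p = 0.147) and 0.12 ± 0.16 in the Lin-28B clones (SE, limma adjusted p = 0.757).

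MCM7 measured 13394 and 11190 in the Lin-28B clones, against 8019 in their control. It measured 8617 and 9422 in the Ago2 clones, against 14554 in their control, the highest of the 6 arrays. The clones of each transfection lay between the controls, above the one and below the other. On the normalized scale, however, Ago2 clone 1 was level with the control for Lin-28B, at 13.081 and 13.075. Under cyclic loess both Ago2 clones lay below both controls. The log2 change was 0.50 ± 0.14 in the Lin-28B clones (SE, limma adjusted p = 0.155) and -0.66 ± 0.14 in the Ago2 clones (SE, limma adjusted p = 0.152). The RefSeq gene table places the microRNA genes MIR25, MIR93 and MIR106B inside MCM7, and the microRNAs themselves were not measured on these arrays.

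MCM2 measured 1458 and 1344 in the Lin-28B clones, against 856 in their control, and 979 and 1386 in the Ago2 clones, against 1635 in theirs. Its log2 changes were 0.52 ± 0.21 and -0.43 ± 0.21 in this order (SE, limma adjusted p = 0.283 and 0.451). MCM5 measured 827 and 669 in the Lin-28B clones, against 388 in their control, and 516 and 834 in the Ago2 clones, against 798 in theirs. The Ago2 clones fell on both sides of their control for MCM5, and the gap between them was 0.67 on the log2 scale, the widest between Ago2 clones for any member. Its log2 change was 0.83 ± 0.305 in the Lin-28B clones and -0.26 ± 0.305 in the Ago2 clones (SE, limma adjusted p = 0.245 and 0.766). Across the 5 subunits measured, the log2 changes in the Ago2 clones spanned 1.47, from MCM6 to MCM4, and in the Lin-28B clones 0.71, from MCM6 to MCM5. Relative to its mean over the 6 arrays, the log2 difference of MCM4 minus MCM6 was 0.12 and 0.026 in the Lin-28B clones, -0.46 in their control, 0.36 and 0.83 in the Ago2 clones and -0.87 in theirs. Within the same arrays, the difference between these 2 subunits was thus larger in every clone than in both controls. These 2 are the subunits with the highest and lowest changes in the Ago2 clones of these same arrays. The separation in those clones therefore follows in part from the choice of the pair. How many other pairs of probes have this pattern was not computed.

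**Figure D2:**
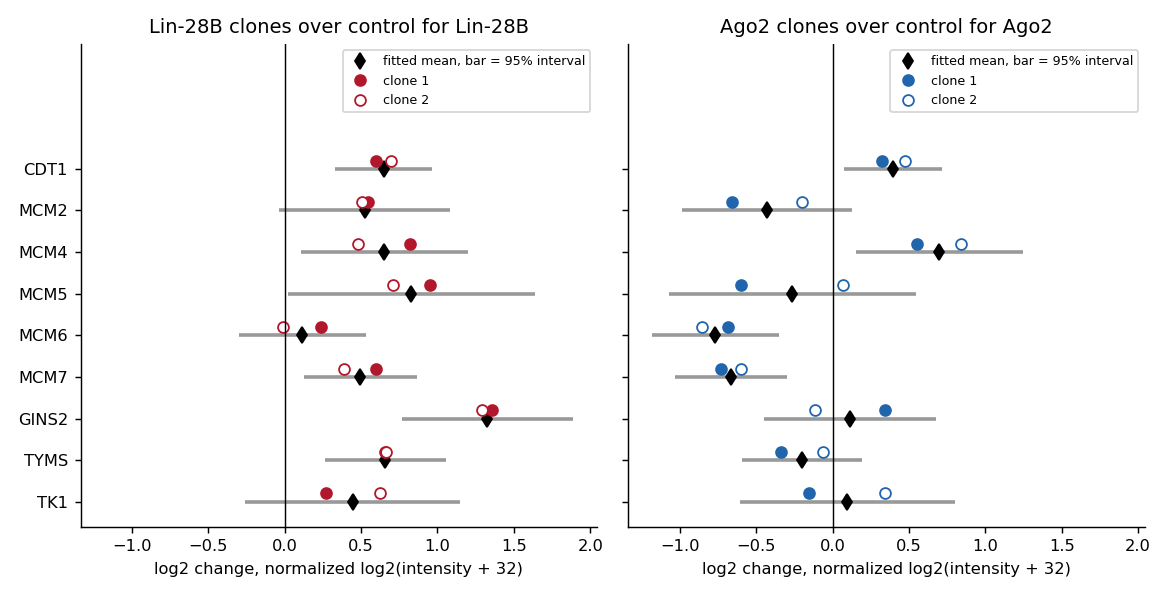
Log2 change of each member from the control of its own transfection, on the normalized log2(intensity + 32) scale. Circles are single clones and diamonds the fitted means with 95% intervals from limma. All 9 means lie above 0 in the Lin-28B clones, whereas in the Ago2 clones 4 lie above and 5 below, with MCM4 highest (0.70) and MCM6 lowest (-0.77).

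GINS2, a subunit of the complex that turns the loaded ring into an active helicase, had the largest change among the members. It measured 3237 and 2982 in the Lin-28B clones, against 1062 in their control, and 2900 and 2124 in the Ago2 clones, against 2374 in theirs. Lin-28B clones 1 and 2 were 2.57-fold and 2.45-fold above their control, whereas the Ago2 clones fell on both sides of theirs. The log2 change in the Lin-28B clones was 1.33 ± 0.21 (SE, 95% interval 0.76 to 1.89), a 2.51-fold difference with a limma adjusted p of 0.0647, the lowest among the members in this comparison. In the Ago2 clones it was 0.12 ± 0.21 (SE, limma adjusted p = 0.855). The call on GINS2 sat near the threshold. Its adjusted p in limma was 0.0404 with an intensity trend in the moderation, 0.0398 with the stricter filter and 0.045 with no offset, and 0.0932 with an offset of 100. Over all alternatives, leaving out a clone included, it ranged from 0.0222 to 0.273.

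TYMS, the thymidylate synthase, measured 6046 and 5747 in the Lin-28B clones, against 3156 in their control. The Ago2 clones measured 4519 and 5488, against 5885 in their control. The Lin-28B clones differed from each other by only 0.0084 on the log2 scale, and their level was that of the control for Ago2. The log2 change was 0.66 ± 0.15 in the Lin-28B clones (SE, limma adjusted p = 0.107) and -0.20 ± 0.15 in the Ago2 clones (SE, limma adjusted p = 0.633). TK1, the salvage enzyme, measured 1642 and 2008 in the Lin-28B clones, against 1147 in their control, and 1112 and 1625 in the Ago2 clones, against 1287 in theirs. Its log2 change was 0.45 ± 0.27 in the Lin-28B clones (SE, limma adjusted p = 0.456) and 0.095 ± 0.27 in the Ago2 clones (SE, limma adjusted p = 0.908), where the clones fell on both sides of their control.

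Taking the Ago2 clones as a whole, 4 members averaged higher than in their control, as did 48.4% of kept probes, and 5 averaged lower. The median change was -0.20 against -0.0081 over all kept probes. Both clones lay above the control for 2 of 9 members, CDT1 and MCM4, against 34.9% of kept probes. They lay below it for 4 of 9, MCM2, MCM6, MCM7 and TYMS, against 39%. Both clones were at least 1.5-fold below the control for 2 of 9 members, MCM6 and MCM7, against 2.83% of kept probes. No member was at least 1.5-fold above it in both clones, against 2.86% of kept probes. In either direction 5.69% of kept probes reached this size, against 10.1% under the stricter filter. In limma neither the members nor any kept probe (0%) reached an adjusted p of 0.05. At an unadjusted p under 0.05 there were 4 members, CDT1 and MCM4 with higher and MCM6 and MCM7 with lower values in the clones, against 15.1% of kept probes.

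How far these changes rest on a control was seen by setting the same clones against the control of the other transfection. Those comparisons use the same clone arrays, so they are no independent check. In the Lin-28B clones GINS2 was 0.40 above the control for Ago2 on the log2 scale, against 1.33 above their own control. TYMS, at 0.0014, was level with the control for Ago2, and MCM2, MCM5, MCM6 and MCM7 averaged below it, at -0.21, -0.105, -0.25 and -0.24. In all, 5 of 9 members averaged higher, as did 49.2% of kept probes. CDT1, MCM4 and TK1 were 0.63, 0.69 and 0.49 above it, close to their changes from their own control. In the Ago2 clones set against the control for Lin-28B, 8 of 9 members averaged higher, as did 52.6% of kept probes, with GINS2 at 1.05 and MCM5 at 0.67, and MCM6 averaged lower at -0.40. Neither comparison had a member or any other kept probe past an adjusted p of 0.05 in limma (0% in both). At an unadjusted p under 0.05 there were 2 members in the Lin-28B clones, against 11.7% of kept probes, and 4 in the Ago2 clones, against 17.3%.

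**Figure D3:**
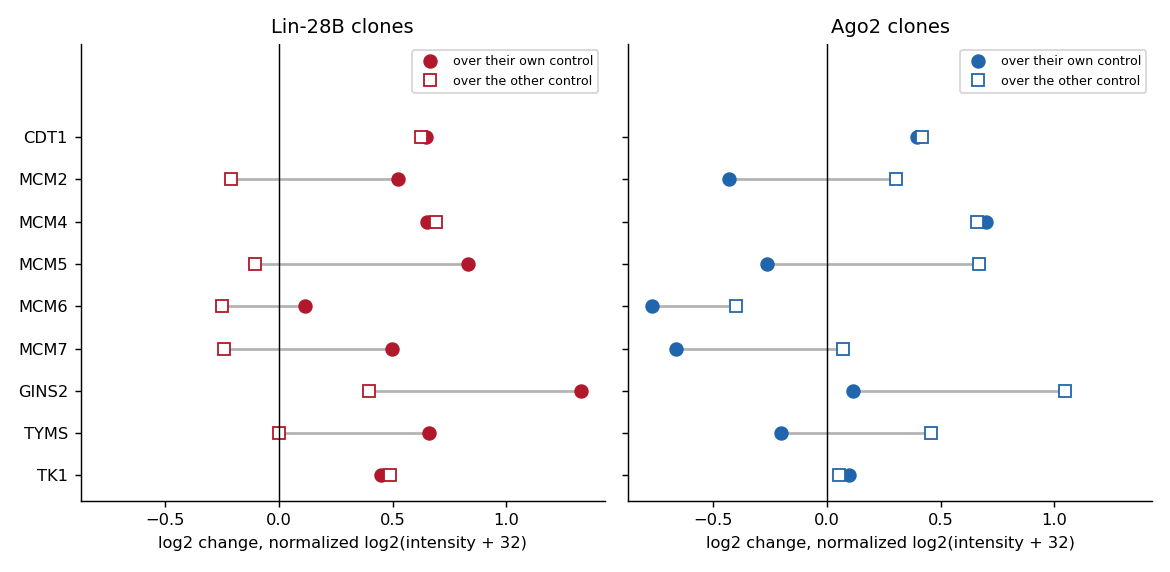
Log2 change of each member over the control of the same transfection (filled circles) and over the control of the other one (open squares). For CDT1, MCM4 and TK1 the 2 values nearly coincide, whereas for MCM2, MCM5 and MCM7 they lie on opposite sides of 0 in both transfections.

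The controls were then set against each other, with 1 array each and the spread taken from the clones. The control for Lin-28B was higher than the control for Ago2 for 2 of 9 members, MCM4 and TK1, by 0.039 and 0.040 on the log2 scale, against 46.5% of kept probes, and lower for 7. It was at least 1.5-fold below for 5 of 9 members, MCM2, MCM5, MCM7, GINS2 and TYMS, against 9.86% of kept probes. The log2 differences of these members ranged from -0.93 for MCM5 and GINS2 to -0.66 for TYMS. MCM7 had the lowest adjusted p, 0.0751 in limma, with a log2 difference of -0.74 ± 0.16 (SE). No member passed an adjusted p of 0.05 in limma, where 5.97% of kept probes did, and 5 passed an unadjusted p under 0.05, against 24.4%. Under the stricter filter, which keeps brighter probes, 13.5% of probes passed the adjusted p in limma, and still no member.

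Without any control, the Lin-28B clones were compared directly with the Ago2 clones. In the Lin-28B clones 8 of 9 members averaged higher, as did 51.6% of kept probes, and MCM4 was level, with a difference of -0.0067 on the log2 scale (95% interval -0.45 to 0.44). Both Lin-28B clones lay above both Ago2 clones for 5 of 9 members, CDT1, MCM6, MCM7, GINS2 and TYMS, against 18.7% of kept probes. For no member did they lie below both, against 16.9%. For GINS2 the nearest clones were almost level on the normalized scale, at 11.53 in Lin-28B clone 2 and 11.51 in Ago2 clone 1. For TYMS they were at 12.49 in Lin-28B clone 1 and 12.43 in Ago2 clone 2. MCM6 differed by 0.52 ± 0.13 and MCM7 by 0.43 ± 0.11 (SE, limma adjusted p = 0.612 and 0.631). These were the 2 members with an unadjusted p under 0.05, which 6.96% of kept probes had. Neither the members nor any kept probe (0%) reached an adjusted p of 0.05 in limma. For the members other than MCM6 and MCM7 the 95% interval included 0, and its width differed between members, from -0.030 to 0.49 for CDT1 and from -0.50 to 0.82 for MCM5.

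**Figure D4:**
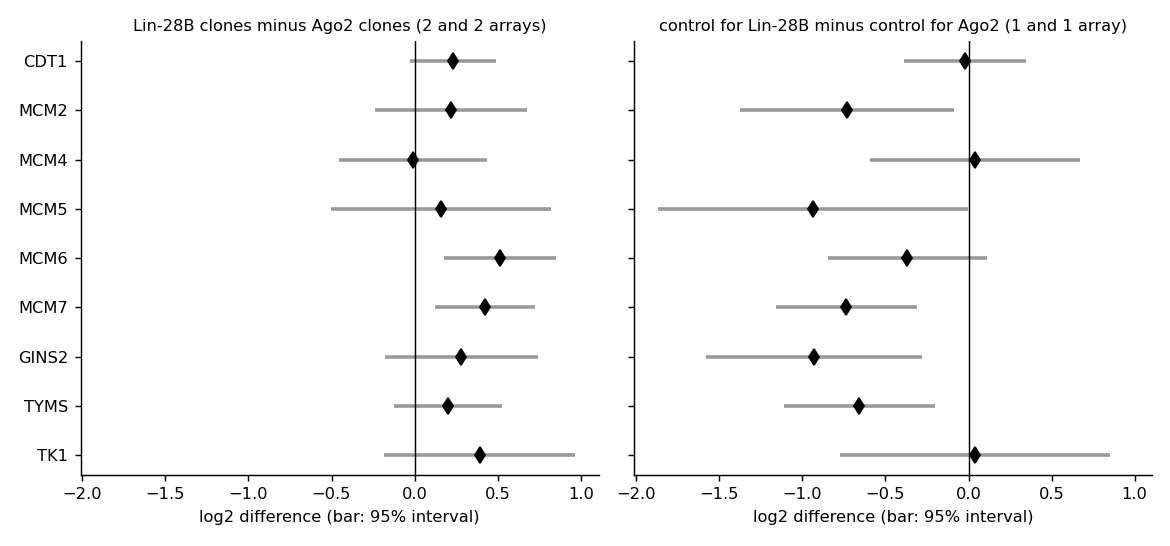
Log2 difference of each member between the Lin-28B and Ago2 clones (left) and between their controls (right), with 95% intervals from limma. MCM4 is near 0 in both panels, MCM6 is highest on the left (0.52), and MCM5 and GINS2 are lowest on the right (-0.93).

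The difference between both effects, each from its own control, was above 0 for 8 of 9 members, as for 53.4% of kept probes, and was largest for GINS2, at 1.21 ± 0.30 on the log2 scale (SE, limma adjusted p = 0.11). The lowest adjusted p was that of MCM7, 0.0564, with a difference of 1.16 ± 0.20 (SE). No member passed an adjusted p of 0.05 in limma, where 3.81% of kept probes did, and 5 passed an unadjusted p under 0.05, against 22.1%. This difference holds the gap between the 2 single control arrays as well as the gap between the clones. For GINS2 the clones contributed 0.28 and the controls 0.93 in size, and for MCM7 the clones contributed 0.43 and the controls 0.74.

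The spread in these tests came from 2 pairs of clones, and the Ago2 pair was wider for 6 of 9 members. On the log2 scale the gap between the Ago2 clones was 0.46 for both MCM2 and GINS2, against 0.039 and 0.065 between the Lin-28B clones. Without Ago2 clone 1 or clone 2, where the spread came from the Lin-28B pair alone, the same 4 members passed in the Lin-28B clones against their control. These were CDT1, MCM5, GINS2 and TYMS, with a lowest adjusted p in limma of 0.0222 and 0.0244, both for GINS2. In these fits 9.27% and 8.85% of all kept probes passed too, against 1.65% with all clones. Without Lin-28B clone 1 or clone 2 no kept probe passed (0%), members included, and the lowest adjusted p among the members was 0.273 and 0.228.

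Pearson's r over the 6 arrays, given as a description because the arrays share the parent line and the controls, measured how alike the members' profiles were. With the mean profile of the other 8 members, r was highest for TYMS (0.951), MCM5 (0.839) and MCM2 (0.787) and lowest for MCM4 (0.444) and MCM6 (0.123). Of 3643 other kept probes that ranged over at least 1 on the log2 scale, 163 (4.47%) had r above 0.9 with the mean profile of all 9 members. Another 106 had r below -0.9 with it. The most alike was ILMN_1813389, with r = 0.991 and intensities of 1909 and 1417 in the Lin-28B clones, 475 in their control, 804 and 1212 in the Ago2 clones and 1428 in theirs. It was lowest in the control for Lin-28B, as were 6 of the members, but it was picked by its likeness to a mean profile that is lowest there.

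Promoter sequence is shown for the subunits whose values in the Ago2 clones were below their control in both clones, MCM6, MCM7 and MCM2. It is also shown for TK1, which had no such pattern. TYMS, which is no subunit, was also below the control in both Ago2 clones, and its sequence is not shown. RefSeq windows of GRCh38.p14, from 250 bases before to 50 after a transcription start, were used for 7 of the 9 members, with 3 starts for MCM7 and 2 for TK1. MCM5 had no window, and MCM4 was left out of the search. The windows were searched on both strands for 2 E2F-type sequences, TTTCGCGC and TTTGGCGC, and for the CCAAT box, CCAAT. E2F factors bind sequences of the first kind in S phase genes, and NF-Y binds the CCAAT box. Capitals mark the matches, on either strand, and each line runs 5′ to 3′ along the gene.
MCM6, chr2:135876486-135876605, minus strand: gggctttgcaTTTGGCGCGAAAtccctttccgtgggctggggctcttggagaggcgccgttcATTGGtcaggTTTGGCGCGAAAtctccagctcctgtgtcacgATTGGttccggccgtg
MCM7, chr7:100101398-100101517, minus strand: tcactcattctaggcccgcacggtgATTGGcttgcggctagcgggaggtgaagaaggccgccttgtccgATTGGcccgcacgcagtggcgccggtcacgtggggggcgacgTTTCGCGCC
MCM2, chr3:127598402-127598431, plus strand: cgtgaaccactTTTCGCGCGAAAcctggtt
TK1, chr17:78187053-78187142, minus strand: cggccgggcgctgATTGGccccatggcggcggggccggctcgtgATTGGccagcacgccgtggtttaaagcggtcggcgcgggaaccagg

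The MCM6 promoter holds the same run of E2F-type letters at 2 places, 152 and 90 bases before the start, and in each the 2 E2F-type sequences overlap on opposite strands. In MCM7 the match begins 9 bases before the first of its starts and shares its last base with a CCAAT box that runs into the transcribed part. In MCM2 overlapping matches on both strands begin 3 bases into the transcribed part. An E2F-type match was thus present in 3 of the 10 windows of the members, against 1.15% of 35116 RefSeq windows. A CCAAT box was present in 6 of the 10 windows, 3 of them of MCM7 and the others of MCM6, GINS2 and TK1, against 34.6% of RefSeq windows. Windows of CDT1, GINS2, TYMS and TK1 had no E2F-type match of these exact letters. The members with a match had log2 changes of -0.77, -0.66 and -0.43 in the Ago2 clones against their control (MCM6, MCM7, MCM2). Those without one had 0.40, 0.12, -0.20 and 0.095 (CDT1, GINS2, TYMS, TK1). Of these, TYMS was below the control in both Ago2 clones, as were MCM6, MCM7 and MCM2. MCM4 and MCM5, which were not searched, had 0.70 and -0.26. In the Lin-28B clones against their control the changes, in the same order, were 0.12, 0.50 and 0.52 with a match and 0.65, 1.33, 0.66 and 0.45 without one. The windows were matched to genes by symbol, and which start these cells use was not measured. The pattern in the Ago2 clones was seen after the values were known, and it depends on the control. Against the control for Lin-28B, the changes of MCM6, MCM7 and MCM2 in the Ago2 clones were -0.40, 0.071 and 0.30.

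**Figure D5:**
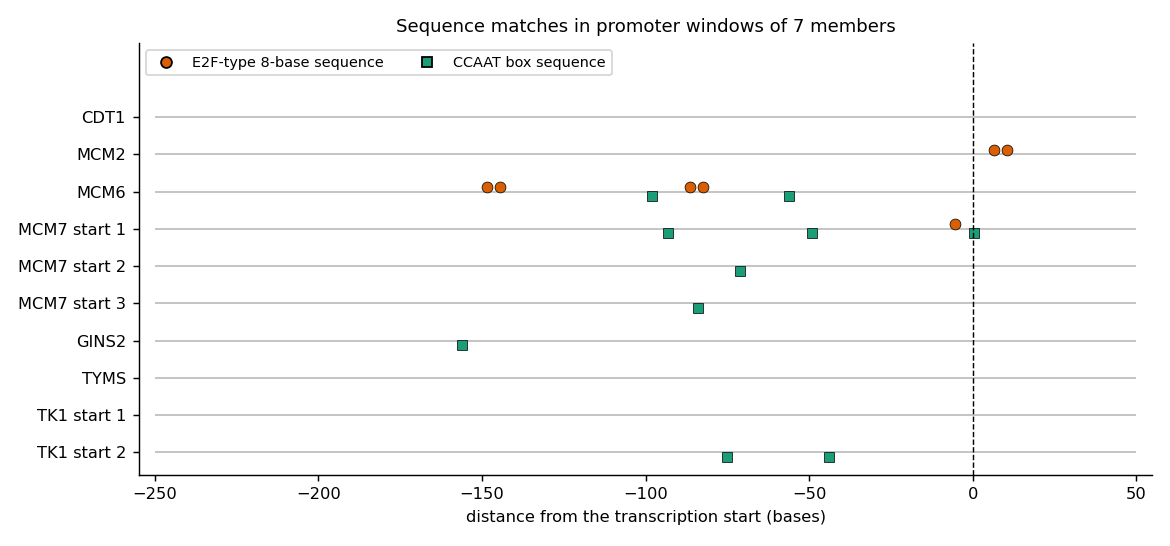
Places of E2F-type sequences (circles) and CCAAT boxes (squares) in the promoter windows of 7 members, against the distance in bases from the transcription start (dashed line). E2F-type matches lie in the windows of MCM2, MCM6 and the first start of MCM7 only, 4 of them in MCM6.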

How the data were processed

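Values were the deposited linear intensities of 6 arrays. How the authors scanned, background-corrected and normalized the deposited intensities is not stated by any label or header; per the labels' protocols, Trizol RNA was amplified with an Ambion MessageAmp kit. After a floor of 1, an offset of 32 was added, and the log2 values were quantile normalized. Probes were kept if they exceeded the array median on 2 or more arrays. One model of 4 groups over all 6 arrays was fitted in limma 3.58.1 (R 4.3.3), with 2 residual degrees of freedom and 2.54 prior ones around a prior SD of 0.105; each control has 1 array, whose spread is taken to equal that of the clones. All p-values are two-sided. An exact permutation test of 2 clones against 1 control cannot pass any usual threshold and was not used. Precision is limited by the number of arrays. Clone numbers do not pair samples across transfections by any label.

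The members and lists were chosen with earlier results of these data known. The naming rule took all 9 members, listed genes past a threshold, and the probes most like the members. Lists of other replication genes, G1/S regulators, mitosis and cell type markers, other probes of the members' genes, and proteins were planned but not analysed here, because only the members' probes were paired with genes. Alternatives were offset, scaling, filter, moderation, replicate block and leaving out each clone.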

Additional observations from a re-analysis of the deposited data

Results flagged for a closer look

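For 3 members both Lin-28B clones lay above their control while both Ago2 clones lay below theirs, on the normalized log2 scale. The difference between both effects was 0.95 for MCM2, 1.16 for MCM7 and 0.86 for TYMS. Tested in limma over all kept probes, it did not pass, with adjusted p of 0.164, 0.0564 and 0.108. The controls, with 1 array each, differed for these members by -0.73, -0.74 and -0.66, and their part in the result cannot be told apart from that of the transfections.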

How the results depend on the processing

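Each comparison had 0 members past the threshold. In the Lin-28B clones against their control the number was 1 (GINS2) with an intensity trend, with no offset and with the stricter filter, where 2.57%, 2.9% and 5.08% of all probes tested passed. It was 0 to 4 when 1 clone was left out, where 0% to 9.27% of probes passed. For the difference of effects it was 1 (MCM7) with the intensity trend, where 5.55% of probes passed, and 0 to 5 when 1 clone was left out (0% to 10.7% of probes). For the controls it was 0 to 5 when 1 clone was left out (0% to 15.3% of probes). In these 3 comparisons no probe passed without a Lin-28B clone. It stayed 0 for the Ago2 clones against their control and for Lin-28B against Ago2 clones under every alternative run. The number at least 1.5-fold from the control in both clones was 4 for Lin-28B (9.91% of all kept probes), 3 to 6 under the offsets, scalings and filters and 1 with a 2-fold rule (2.55%). For Ago2 it was 2 (5.69%), 1 (MCM6) with median scaling (6.1%) and 0 with a 2-fold rule (1.24%). With the stricter filter the counts were still 4 and 2, at 17.6% and 10.1% of probes. Leaving out 1 clone gave 4 to 6 for Lin-28B (10.3% to 15.3% of probes) and 2 to 4 for Ago2 (5.9% to 11.7%). Without one of its own clones the rule rests on the other clone alone, so these counts are no check of the rule over both clones.

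Of 117 log2 changes per comparison under alternatives, 1, 4, 3, 5 and 3 changed sign in the Lin-28B, Ago2, difference, clone and control comparisons. None of these was called. Filters and moderation do not alter a log2 change, so under them no sign could change. The replicate block likewise altered only the changes of the Lin-28B and Ago2 clones from their own control. The 117 therefore include values that could not differ from the main fit. With median scaling MCM4 had 0.19 for the difference, 0.0061 between clones and -0.19 between controls, and TK1 -0.13 between controls. With cyclic loess CDT1 had 0.038 between controls, and with the replicate block TK1 had -0.12 in the Ago2 clones. When 1 clone was left out, MCM6 in the Lin-28B clones ranged from -0.0098 to 0.24. In the Ago2 clones MCM5 ranged from -0.60 to 0.071, GINS2 from -0.11 to 0.34 and TK1 from -0.15 to 0.34. The difference for MCM4 ranged from -0.22 to 0.12. Between clones MCM2 ranged from -0.011 to 0.45, MCM4 from -0.18 to 0.16 and MCM5 from -0.18 to 0.49. The cause of these changes was not tested.

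With the clone number as a replicate block, 0 members passed in any comparison; clone differences of both transfections correlated at -0.204 across probes, so the numbers are not shown to pair the samples. With the numbers crossed, chosen after seeing the data, 1 member passed for the difference (6.22% of probes) and 0 in the other comparisons.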
